A study of Mus musculus with 6 samples.

Results

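Genes of mitochondrial and peroxisomal fatty acid oxidation were followed in livers and adrenal glands of mice lacking the sterol transporter subunit Abcg8. A fixed list of 34 gene symbols was looked up among the 33639 gene symbols of the deposited tables, and all 34 were found. By textbook location, 18 act in mitochondria and 12 in peroxisomes, and 4 activate or carry fatty acids on their way to either organelle. Crat and Eci2 occur in both organelles and were counted as peroxisomal.

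All mice lacked Abcg8 throughout the body and were labelled male. Without the transporter that Abcg8 forms with Abcg5, plant sterols accumulate in blood and tissues. The mice received a low-sterol diet containing 0.005% ezetimibe, a blocker of intestinal sterol uptake, up to weaning. For the next 12 weeks they ate 1 of 4 diets, with ergosterol, with stigmasterol, or with sitosterol at a low or a high level, whose sterol doses are not given in the sources used here. Liver was sequenced on all 4 diets and adrenal gland on low and high sitosterol, with 1 mouse and 1 library per group, so that no difference has a replicate check. No animal with intact Abcg8 was analysed here, and every value describes the Abcg8-deficient state. Library totals ran from 41546507 to 50573364 estimated counts.

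Fatty acids are tied to coenzyme A by acyl-CoA synthetases such as Acsl1 before they are broken down. Mitochondria take up long chains through the carnitine shuttle of Cpt1a, Slc25a20 and Cpt2 and shorten them in cycles of dehydrogenation, hydration, dehydrogenation and thiolysis, the electrons passing through Etfa, Etfb and Etfdh to the respiratory chain. Peroxisomes import very long, branched and dicarboxylic acyl-CoAs through ABCD transporters, shorten them with Ehhadh or Hsd17b4 and the thiolases Acaa1a, Acaa1b and Scp2, and pass the products on as carnitine esters made by Crat and Crot. In mouse liver many of these genes are known targets of the fatty acid receptor PPARA, which binds DNA together with RXR.

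Some libraries departed from their labels, and this preceded every comparison. The Y-linked genes Eif2s3y and Ddx3y had 1188 to 2201 counts in each liver but 0 to 3 in each adrenal library, which goes against the male label of the adrenals. Hepatocyte genes (10 listed) summed to 90223 to 136675 TPM (a share of transcripts, corrected for gene length) in the livers and to 505 and 326 TPM in the adrenals, and adrenal cortex genes (10 listed) summed to 53268 and 55400 TPM in the adrenals. The low sitosterol liver, which is the denominator of 3 comparisons, held adrenal genes: Cyp11a1, the first enzyme of steroid synthesis, stood there at 8.45 TPM against 0.17 to 0.64 TPM in the other livers. The cortex genes stood in it at a median of 0.0880% of their adrenal TPM, against 0.00454% to 0.0133% in the other livers. Comparisons that leave this library out are given below.

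Levels between libraries of a tissue are given as scaled CPM, counts relative to the library total after trimmed-mean (TMM) scaling within the tissue, and levels between genes or tissues as TPM. A size rule took the place of a test: a member is called higher or lower if 2 libraries differ by 2-fold or more (a log2 ratio of 1) and equality lies outside the exact (Clopper-Pearson) 95% interval of that ratio. That interval covers counting error only, and the rule compares 2 libraries, not 2 diets. Genes reaching 1 CPM in any library of a tissue were analysed, 13378 in liver and 14224 in adrenal, and all 34 members passed in both.

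The stretches before the starts of the genes on which the results turn are shown first (RefSeq, GRCm38.p6, strand of the gene, read 5′ to 3′). PPARA and RXR are known to bind the DR1 motif, the letters AGGTCA repeated with 1 base between the copies. It was searched on both strands with up to 2 of the 12 letters differing, in the 250 bases before each start. Of 29 members with an entry in the promoter table, 2 held a match, Fabp1 and Etfa, against 3.72% of 27025 genes. Only the part of each window before both the RefSeq and the GENCODE M21 start of the gene is printed, which leaves 198 bases for Fabp1 and 219 for Pdk4. In Fabp1, whose RefSeq start lies inside the GENCODE gene, the match (chr6:71199812-71199824) lay 67 to 55 bases before the RefSeq start and so near the end of the printed stretch, differed by 1 letter, read on the opposite strand, and is in capitals. The windows of Ehhadh, Acaa1b and Pdk4, which are 3 of the 4 members called higher than with low sitosterol in both the ergosterol and the stigmasterol liver, held no match. In these the capitals mark CCAAT boxes (CCAAT or its complement ATTGG), a motif chosen after the sequences were seen and held by 13 of the 29 members and 37.5% of all genes. The last stretch is the 85 bases between the starts of Hadha and Hadhb, the divergent genes of the subunits of the mitochondrial trifunctional protein, and held neither motif.
Fabp1, chr6:71199629-71199826, plus strand: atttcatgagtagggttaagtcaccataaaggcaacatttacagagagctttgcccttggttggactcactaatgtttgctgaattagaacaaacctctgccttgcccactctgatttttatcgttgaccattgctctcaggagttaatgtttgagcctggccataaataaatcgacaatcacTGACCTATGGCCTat
Ehhadh, chr16:21787835-21788084, minus strand: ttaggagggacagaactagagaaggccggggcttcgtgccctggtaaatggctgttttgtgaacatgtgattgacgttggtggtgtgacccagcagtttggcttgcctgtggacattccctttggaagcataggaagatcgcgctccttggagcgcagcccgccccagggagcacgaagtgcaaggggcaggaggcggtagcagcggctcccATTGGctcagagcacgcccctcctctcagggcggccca
Acaa1b, chr9:119157094-119157343, minus strand: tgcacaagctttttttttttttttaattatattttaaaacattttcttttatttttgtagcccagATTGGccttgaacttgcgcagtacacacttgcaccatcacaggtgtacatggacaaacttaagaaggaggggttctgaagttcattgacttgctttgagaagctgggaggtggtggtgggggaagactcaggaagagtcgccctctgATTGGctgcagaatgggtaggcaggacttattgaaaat
Pdk4, chr6:5496310-5496528, minus strand: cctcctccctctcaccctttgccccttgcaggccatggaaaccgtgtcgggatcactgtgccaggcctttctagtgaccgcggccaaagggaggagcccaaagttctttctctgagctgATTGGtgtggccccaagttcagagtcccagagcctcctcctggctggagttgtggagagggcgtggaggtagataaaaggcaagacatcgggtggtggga
Hadha and Hadhb, chr5:30155163-30155247, plus strand: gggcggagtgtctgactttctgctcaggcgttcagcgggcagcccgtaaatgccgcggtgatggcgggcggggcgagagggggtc

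A match of letters is a description and not a binding site, and a window without one says nothing of sites elsewhere. The other members are placed by GENCODE M21 on GRCm38. Abcd2 lies at chr15:91145871-91191799, Abcd3 at chr3:121758774-121815302, Crat at chr2:30400471-30415813, Acsl1 at chr8:46471037-46536051 and Slc27a2 at chr2:126552407-126588243, all protein coding. Of the genes shown above, Fabp1 spans chr6:71199827-71205023, Ehhadh chr16:21761287-21787807, Acaa1b chr9:119148023-119157093 and Pdk4 chr6:5483351-5496309.

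In liver the carriers and thiolases were the most abundant members. Values of the 4 livers are given in the order low sitosterol, then high sitosterol, then ergosterol, then stigmasterol. Fabp1, the fatty acid binding protein of the hepatocyte cytosol, stood at 16610, 11603, 13290 and 6017 TPM. It made up 69.1%, 61.8%, 50.2% and 33.8% of the summed TPM of all members in the same order. Lowest in the stigmasterol liver, it was nearly absent from the adrenals at 6.04 and 5.96 TPM.

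Of the peroxisomal members the thiolase and sterol carrier Scp2 led, at 2441, 2133, 3388 and 3321 TPM in the 4 livers, followed by the thiolase Acaa1b and by Crot, which makes medium-chain carnitine esters. In TPM Crot stood at 98.9, 89.2, 232 and 313. Both sitosterol livers were the lower pair for Scp2 and Crot by TPM, although by scaled CPM the stigmasterol liver was the lowest for Scp2 (2535).
Among mitochondrial members the thiolase Acaa2 (641, 622, 924 and 751 TPM), the electron carrier subunit Etfb (515, 616, 587 and 684 TPM) and the very long chain dehydrogenase Acadvl (318, 321, 322 and 370 TPM) had the highest mean. These leading mitochondrial genes lay close together across the livers, within 1.77-fold, 1.43-fold and 1.52-fold by scaled CPM. The lowest of the 18 was Pdk4, the kinase that shuts pyruvate out of the mitochondrial citric acid cycle, at 0.957 to 8.56 TPM.

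By scaled CPM the organelles differed in how far their members spread. Over the 4 livers, the highest scaled CPM was less than 2-fold above the lowest for 15 of 18 mitochondrial members, and for 2 of 12 peroxisomal members, Scp2 and Acaa1a. Pdk4 was the widest mitochondrial member (6.69-fold) and Acaa1b the widest peroxisomal one (4.73-fold), followed by Ehhadh (4.11-fold) and Crat (4.01-fold). The contrast was smaller by TPM. There Acadm (2.99-fold), Hadh (2.43-fold), Hadhb (2.22-fold) and Bdh1 (2.01-fold) also spread by 2-fold or more. Eci2 (1.95-fold) and Decr2 (1.63-fold) spread by less than 2-fold on that scale. The counts by scaled CPM have no share over all genes beside them and describe the members only. Every liver stood above both adrenals in TPM for 8 peroxisomal, 4 mitochondrial and 3 activating or carrying members, and below both for 5 mitochondrial members (Cpt1a, Acadm, Acadl, Hadhb and Pdk4) and for Crat and Abcd2. The share of all genes that part between these tissues is not given here, so these counts do not set the members apart from other genes. The summed peroxisomal TPM was 1.23, 1.11, 1.79 and 1.51 times the mitochondrial sum in the livers, and 0.294 and 0.303 times in the low and high sitosterol adrenals. Scp2 alone made up 67.6%, 63.6%, 44.6% and 50.7% of the peroxisomal sum in the livers. Without Scp2 the peroxisomal sum was 0.398, 0.405, 0.990 and 0.744 times the mitochondrial one in the livers. In the adrenals it was then 0.163 and 0.174 times.

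**Figure D1:**
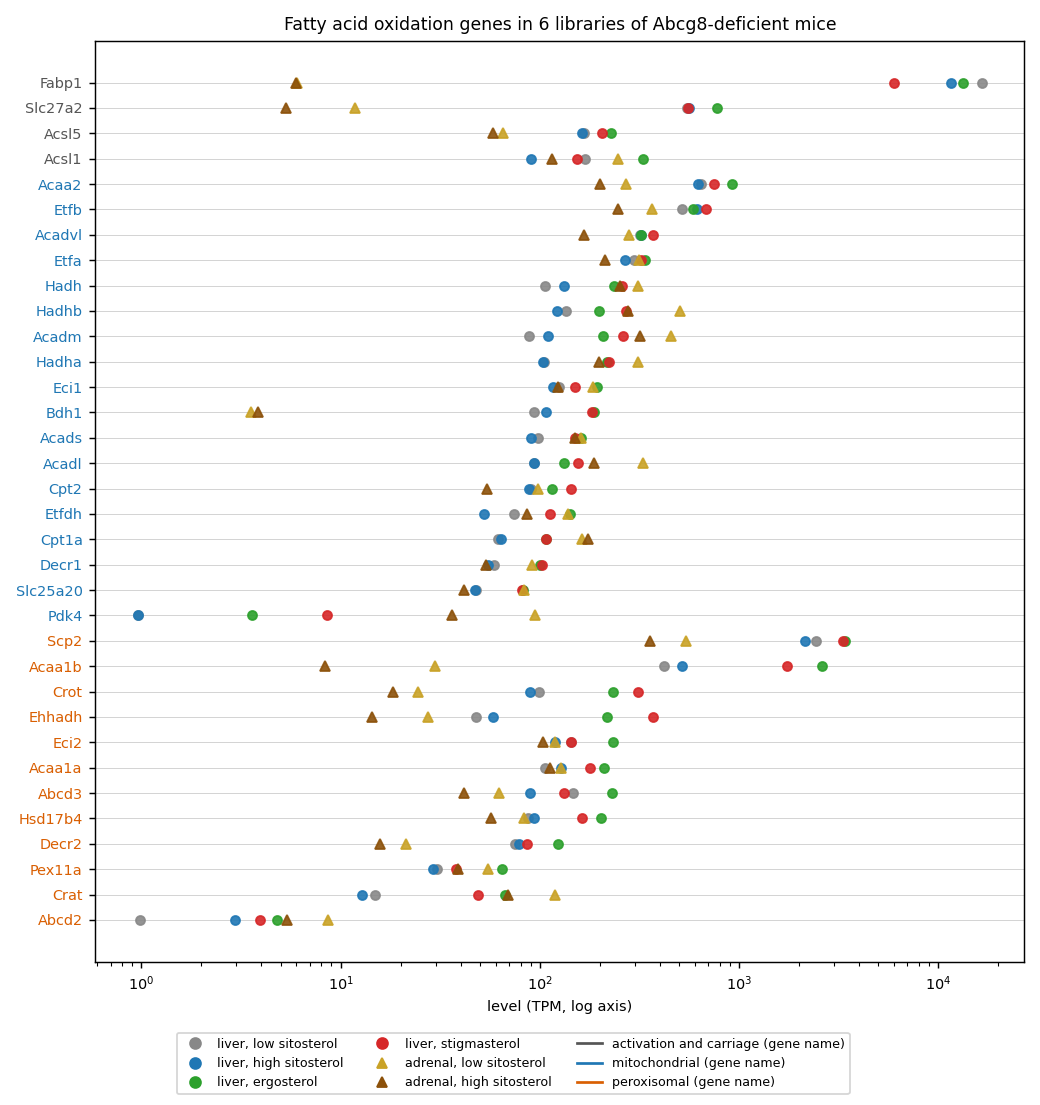
Level of each of the 34 members in the 6 libraries (TPM, log axis), 1 point per library, with circles for liver and triangles for adrenal, grouped by role and ordered by mean liver TPM. Fabp1 stands at 6017 TPM or more in every liver and near 6 TPM in both adrenals, and Pdk4 and Abcd2 are the lowest liver members.

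Peroxisomal members stood higher in the ergosterol liver than in the low sitosterol liver, and mitochondrial members did so by less. By the size rule 4 of 12 peroxisomal members were higher and 0 lower (median log2 ratio 0.74), 1 of 18 mitochondrial members was higher and 0 lower (0.38), and none of the 4 activating or carrying genes passed (0.06). Over all genes 6.03% were higher and 5.82% lower, with a median of 0.02. All 12 peroxisomal and 16 of 18 mitochondrial ratios were above 0, beside 51.8% of all genes, the exceptions being the electron carrier subunits Etfa (-0.06) and Etfb (-0.25), which lie above 0 on the TPM scale. With a 1.5-fold rule 8 of 12 peroxisomal and 4 of 18 mitochondrial members were higher and 0 lower, beside 14.0% higher and 12.5% lower over all genes.

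Acaa1b, a peroxisomal thiolase abundant in rodent liver, stood at 741, 746, 3510 and 1635 scaled CPM in the 4 livers. The ergosterol liver was 4.73-fold above low sitosterol (log2 2.24, interval 2.23 to 2.26), and the sitosterol livers were alike. Of its 31-base words, 40.0% also occur in Acaa1a, so that the split of reads between these copies is uncertain. Their neighbour in the pathway, the bifunctional hydratase and dehydrogenase Ehhadh, shares 0.169% of its words with any other gene. It stood at 161, 164, 559 and 660 scaled CPM, with the ergosterol liver 3.48-fold above low sitosterol (log2 1.80, 1.76 to 1.84). Again the sitosterol livers were the low pair, and the stigmasterol liver was here the highest.

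Crat, which makes short-chain carnitine esters, stood at 39.2, 30.4, 122 and 73.0 scaled CPM. Its ratio in the ergosterol liver was 1.64 on the log2 scale (1.56 to 1.72), the only member past the size rule there and not in the stigmasterol liver (0.90, which passes with total counts). The direct ratio of these livers was 0.74 and within the size rule. Abcd2, an importer of very long chain acyl-CoA, was scarce at 6.28, 15.6, 23.2 and 13.2 scaled CPM, and lowest in the low sitosterol liver (257 counts). Its ergosterol ratio was 1.88 (1.69 to 2.09). Pdk4 stood at 2.61, 3.13, 10.7 and 17.5 scaled CPM, from 107 counts in the low sitosterol liver, and was 4.08-fold higher with ergosterol (log2 2.03, 1.73 to 2.35).

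Just within the size rule lay Crot and Acadm, the medium-chain dehydrogenase (0.83 each), Hsd17b4, the other peroxisomal bifunctional enzyme (0.82), and Hadh (0.75). On the log2(TPM + 0.1) scale Acadm, Bdh1, Crot, Hadh, Hadha, Hsd17b4 and Pex11a joined the 5 higher members, and over all genes 12.1% were higher and 2.95% lower. The median of all genes is moved to 0.36 on that scale; relative to it the mitochondrial and peroxisomal medians lay 0.38 and 0.78 above, against 0.36 and 0.71 as reported. Fabp1 went the other way, at -0.72 and within the size rule.

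Other genes of the pathway, from lists set beside the members, followed only in part. Of 33 further peroxisomal genes 3 were higher and 1 lower (median 0.23), with Hacl1, a lyase of branched-chain breakdown, at 1.61 and the acyl-CoA diphosphatase Nudt7 at -1.13. Of 24 further mitochondrial and ketone body genes 1 was higher and 1 lower (0.13). Ppara itself stood at 17.0, 17.5, 67.0 and 17.0 scaled CPM in the 4 livers, with ergosterol alone past the size rule (1.98). By TPM it was nearer the others, at 20.1, 28.0, 43.1 and 20.3. Its coactivator Ppargc1a stood at 6.28, 9.11, 6.17 and 4.72 scaled CPM, within the size rule throughout. A list of PPARA targets outside mitochondrial and peroxisomal oxidation, which includes Cyp4a fatty acid hydroxylases, had 9 of 15 members higher and 0 lower (1.31). It was led by the hydroxylase Cyp4a14 at 6.16. By contrast, 16 genes of mitochondrial content (citric acid cycle, respiratory chain and import) had 0 members past the size rule and a median of -0.05.

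**Figure D2:**
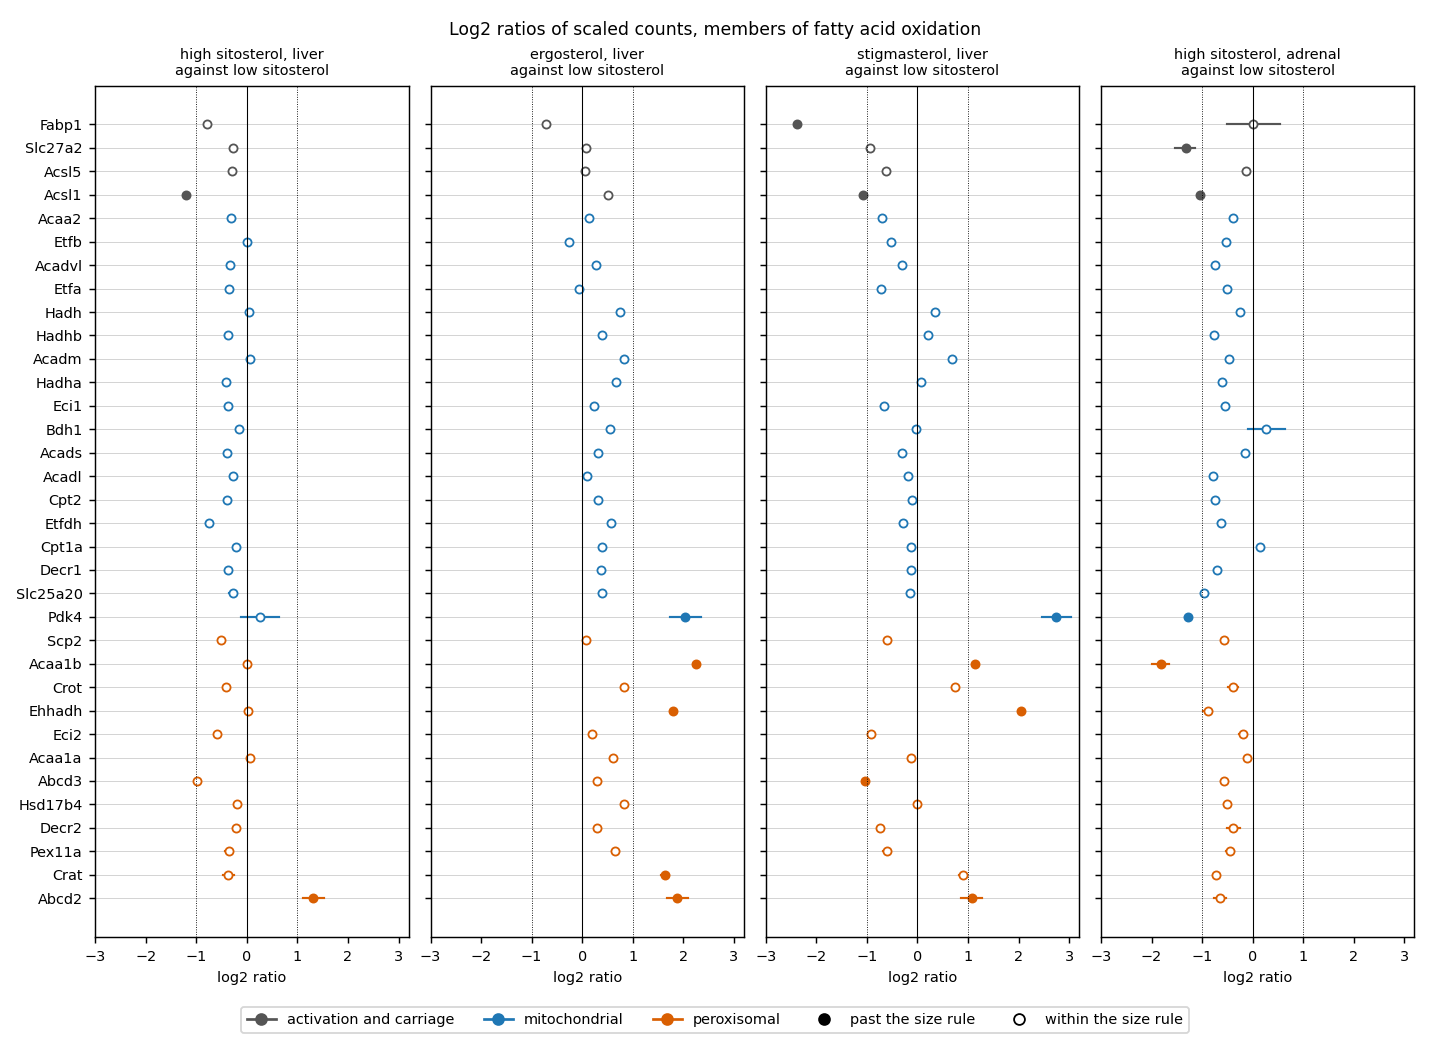
Log2 ratio of scaled counts for each member in the 4 comparisons with low sitosterol, with the 95% counting interval as a bar, filled points past the size rule and dotted lines at 2-fold. Acaa1b, Ehhadh, Abcd2 and Pdk4 are filled on the right in the ergosterol and stigmasterol panels, and 31 of 34 points lie left of 0 in the adrenal panel.

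In the stigmasterol liver the members parted. Ehhadh, Acaa1b, Abcd2 and Pdk4 stood higher than in the low sitosterol liver and Fabp1, Acsl1 and the importer Abcd3 lower, while most mitochondrial members moved little. By the size rule 3 of 12 peroxisomal members were higher and 1 lower (median -0.07), 1 of 18 mitochondrial members was higher and 0 lower (-0.14), and 2 of 4 activating or carrying genes were lower (-1.01). Over all genes 21.6% were higher and 7.80% lower, with a median of 0.08. Over all members 4 of 34 were higher, a smaller share than over all genes, and 3 lower. With a 1.5-fold rule 5 of 12 peroxisomal members were higher and 5 lower, and 2 of 18 mitochondrial members higher and 3 lower, beside 29.9% and 17.0% over all genes.

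Ehhadh was 4.11-fold higher (log2 2.04), Acaa1b 2.20-fold (1.14, 1.12 to 1.16) and Abcd2 2.10-fold (1.07, 0.87 to 1.28). Pdk4 had the highest ratio of the 34, at 6.66-fold (2.74, 2.46 to 3.04). These 4 were also the members higher in both the ergosterol and the stigmasterol liver, comparisons that share the low sitosterol liver. The share of all genes higher in both livers is not given here, so this overlap does not set the members apart. Fabp1 fell from 7040 scaled CPM with low sitosterol to 1345 with stigmasterol, 5.23-fold lower (-2.39, -2.40 to -2.38), with 4077 and 4276 in the high sitosterol and ergosterol livers between them. By TPM the low sitosterol and stigmasterol livers were 2.76-fold apart for Fabp1, so that the size of the fall depended on the scale.

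Acsl1, the main acyl-CoA synthetase of liver, stood at 749, 326, 1070 and 355 scaled CPM in the 4 livers, a high pair of low sitosterol and ergosterol and a low pair of high sitosterol and stigmasterol. Abcd3, the peroxisomal importer of branched-chain and bile acid intermediates, had the same order of pairs at 538, 270, 660 and 260 scaled CPM. Stigmasterol ratios were -1.08 (-1.10 to -1.05) for Acsl1 and -1.05 (-1.07 to -1.02) for Abcd3, just past the threshold, and Slc27a2, a very long chain acyl-CoA synthetase, lay just within it at -0.95. Eci2 (-0.91), Decr2 (-0.74), Acaa2 (-0.69) and Etfa (-0.72) were the next lowest.

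This comparison depended on the scaling. The stigmasterol library had a TMM factor of 1.35, against 0.83 for low sitosterol, and with total counts the median of all genes moved from 0.08 to 0.77. The count of members changed from 4 higher and 3 lower to 8 higher and 1 lower with total counts, where 5283 of all 13378 genes were higher and 401 lower. On the log2(TPM + 0.1) scale 10 members were higher and 1 lower, beside 46.5% and 2.32% over all genes. Acsl1 and Abcd3 lost their calls in both, whereas Ehhadh, Acaa1b, Abcd2, Pdk4 and Fabp1 held theirs. The number of ratios above 0 was 10 of 34 as reported, 27 with total counts and 30 by TPM. Relative to the median of all genes, the mitochondrial median was -0.21 and the peroxisomal -0.14 under TMM and total counts alike, -0.19 and -0.11 on the log2(TPM + 0.1) scale, and 0.02 and 0.10 on the log2(TPM + 1) scale.

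Cell type markers moved with this comparison. All 8 cholangiocyte markers were higher (median 3.34), as were 6 of 8 stellate cell and fibroblast markers (2.18). Of 10 macrophage markers 7 were higher and 1 lower (1.73), and 3 of 10 hepatocyte markers were lower (-0.64), with albumin Alb at -0.91. The cholangiocyte list summed to 1207 TPM in the stigmasterol liver and to 40.8 to 56.3 TPM in the other livers, and none of its members was at 0. Fewer cells of a type and less RNA per cell cannot be told apart in bulk tissue, and the part of cell makeup in the members' values was not tested. Of the further genes, 6 of 24 mitochondrial ones were lower and 1 higher (-0.48), with the malonyl-CoA forming enzyme Acacb at -2.01, and 4 of 33 peroxisomal ones were lower and 0 higher (-0.38), with Nudt7 at -3.07, catalase Cat at -1.34 and Phyh, which starts the breakdown of phytanic acid, at -1.44. The list of PPARA targets had 9 of 15 members higher (1.74), as Cyp4a14 at 4.74, while Ppara was at 0.01 and Lpin1, a partner of PPARA in the nucleus, at -4.14.

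Between the sitosterol livers few members differed. Abcd2 stood higher and Acsl1 lower in the high sitosterol liver, and the remaining 32 lay within the size rule. Peroxisomal members had 1 of 12 higher and 0 lower (median -0.29), mitochondrial members 0 of 18 in either direction (-0.32), and 1 of 4 activating or carrying genes was lower (-0.54), against 8.66% higher and 4.30% lower over all genes and a median of -0.05. Abcd2 was 2.49-fold higher (log2 1.31, 1.11 to 1.53, from 257 and 724 counts) and Acsl1 2.30-fold lower (-1.20, -1.23 to -1.17). On the log2(TPM + 1) scale neither passed, and on the log2(TPM + 0.1) scale only Abcd2 did.

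Abcd3 lay at the threshold (-0.99), followed by Fabp1 (-0.79), Etfdh, which passes electrons to ubiquinone (-0.76), and Eci2 (-0.59). Ehhadh (0.03), Acaa1b (0.01) and Acaa1a (0.06) were nearly level. The list of PPARA targets had 4 of 15 members higher and 1 lower (median -0.0014), with the hydroxylases Cyp4a14 and Cyp4a10 at 2.10 and 1.38 and the pantetheinase Vnn1 at -1.65. The lipase inhibitor G0s2 stood at 21.8 scaled CPM with low and 87.0 with high sitosterol. With a 1.5-fold rule 1 of 18 mitochondrial and 2 of 12 peroxisomal members were lower and 0 and 1 higher, beside 9.19% lower and 14.2% higher over all genes. In all 27 of 34 ratios were below 0, or 25 with total counts and 21 by TPM. The mitochondrial content list had a median of -0.36, close to that of the mitochondrial members, with 0 of 16 past the size rule. All 10 macrophage markers were higher (1.64) and summed to 752 against 202 TPM, and their part in the members' values was not tested. Of the further genes Nudt7 (-1.35) and Acacb (-1.07) were lower.

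**Figure D3:**
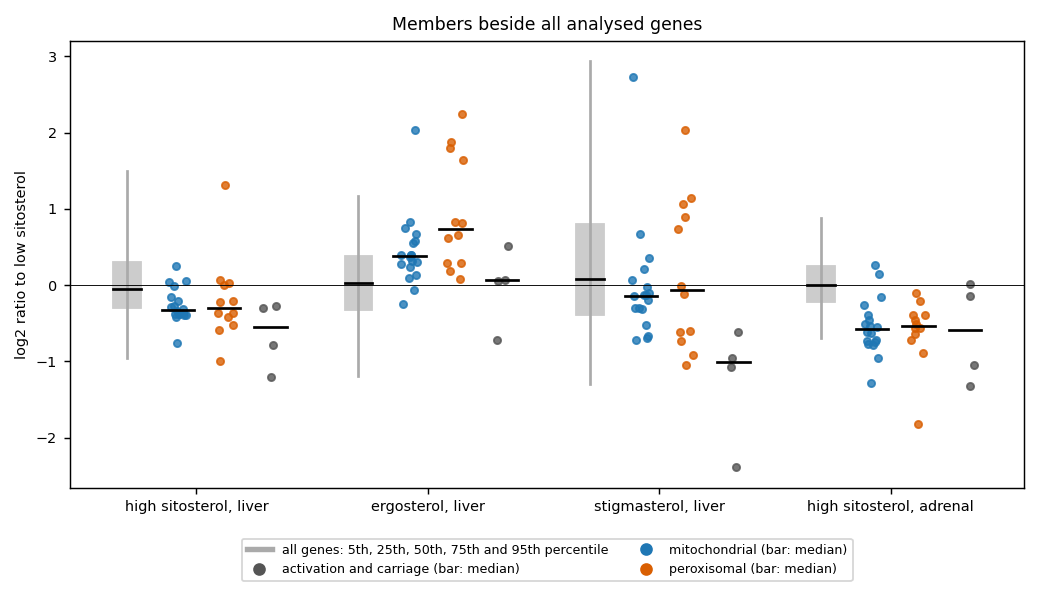
Log2 ratios of the members to low sitosterol (points, with a bar at each median) beside the distribution of all analysed genes in the same comparison (grey line from the 5th to the 95th percentile, box from the 25th to the 75th, black line at the median). Peroxisomal members are centred at 0.74 with ergosterol, and both organelles are centred below -0.5 in adrenal.

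The high sitosterol, ergosterol and stigmasterol livers were also set against each other, which leaves out the low sitosterol liver and the adrenal genes it holds. Relative to high sitosterol, 7 of 12 peroxisomal, 3 of 18 mitochondrial and 1 of 4 activating or carrying members were higher in the ergosterol liver and 0 were lower (medians 1.02 and 0.70 for the organelles), beside 6.18% higher and 8.96% lower over all genes. Acaa1b was at 2.23, Crat was 4.01-fold higher, Ehhadh and Pdk4 were at 1.77, Acsl1 at 1.71, Etfdh at 1.33, Abcd3 at 1.29, Crot at 1.25, Hadha at 1.09, Hsd17b4 at 1.03 and Pex11a, which promotes peroxisome division, at 1.02. Abcd2, lowest in the low sitosterol liver, was at 0.57 here and within the size rule. Of the marker lists, 7 of 10 macrophage markers were lower and 0 higher (median -1.38), and of the 7 fat markers analysed in liver 4 were higher and 1 lower (1.78). Their part in the members' values was not tested.

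Stigmasterol is sitosterol with an additional side-chain double bond. Against high sitosterol, 4 of 12 peroxisomal members were higher in the stigmasterol liver and 0 lower (median -0.07), 1 of 18 mitochondrial members was higher (0.13) and 1 of 4 activating or carrying genes was lower, beside 16.4% higher and 5.60% lower over all genes. Pdk4 (2.48, 2.23 to 2.74), Ehhadh (2.01, 1.98 to 2.05), Crat (1.26), Crot (1.16) and Acaa1b (1.13) were higher and Fabp1 was 3.03-fold lower (-1.60). By TPM Fabp1 stood at 11603 with high sitosterol and 6017 with stigmasterol, less than 2-fold apart. With total counts the mitochondrial and peroxisomal medians were 0.63 and 0.43, beside 0.60 for all genes. Cholangiocyte markers had 7 of 8 higher (3.61), stellate cell and fibroblast markers 5 of 8 (2.68), and 4 of 10 hepatocyte markers were lower (-0.75). Macrophage markers had 1 of 10 higher and 2 lower (-0.20). The part of these cell types in the members' values was not tested. The doses of these diets are not given in the sources used here, so that no matched comparison of the sterols can be made.

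Ergosterol set against stigmasterol gave 5 of 12 peroxisomal, 0 of 18 mitochondrial and 3 of 4 activating or carrying members higher and 0 lower (medians 0.82 and 0.53 for the organelles), beside 7.13% higher and 19.4% lower over all genes. The higher members were Acsl1 (1.59), Fabp1 (1.67), Slc27a2 (1.02), Abcd3 (1.34), Pex11a (1.27), Acaa1b (1.10), Eci2 (1.10) and Decr2 (1.03). Ehhadh (-0.24) and Pdk4 (-0.71) were the members below 0. None of the peroxisomal calls held with total counts or on the log2(TPM + 0.1) scale, where 0 of 12 were higher, while Pdk4 was lower by both. Over all 13378 genes 426 were higher and 4017 lower with total counts, and 3.12% and 28.6% on the TPM scale. With total counts the mitochondrial median was 0.00033 and the peroxisomal 0.29, beside -0.57 for all genes. Acsl1 (1.06) and Fabp1 (1.14) still passed with total counts. In this comparison 7 of 8 cholangiocyte (median -4.01) and 7 of 8 stellate cell and fibroblast markers (-2.22) were lower. Of 10 macrophage markers 4 were lower and 1 higher (-0.95), and hepatocyte markers had 1 of 10 higher (0.73). Their part in the members' values was not tested. By scaled CPM the ergosterol liver was the highest of the 4 livers for 29 of 34 members, and by TPM for 20, with the stigmasterol liver highest for 13. How often it was the highest over all genes is not given here.

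Ratios of related enzymes within a library do not depend on scaling between libraries. Acaa1b stood at 3.93, 4.07, 12.5 and 9.77 times the TPM of its copy Acaa1a in the 4 livers. Ehhadh was at 0.545, 0.624, 1.08 and 2.28 times Hsd17b4, the enzyme that runs the same steps on bile acid and branched-chain intermediates, and at 0.455, 0.567, 1.00 and 1.68 times Hadha, its mitochondrial counterpart. In each of these ratios the ergosterol and stigmasterol livers were the high pair. Their numerators, Acaa1b and Ehhadh, are members already called higher in both livers. Which of these livers was higher differed: ergosterol for the thiolases and stigmasterol for both Ehhadh ratios. Acadm over Acadl had the same high pair (1.56 and 1.69), but not every ratio did. Crot over Crat was lowest with ergosterol (3.47), and Abcd2 over Abcd3 was highest with high sitosterol (0.0329). Acsl1 relative to Acsl5, another acyl-CoA synthetase, was 1.02, 0.552, 1.44 and 0.743, again with high sitosterol and stigmasterol as the low pair.

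**Figure D4:**
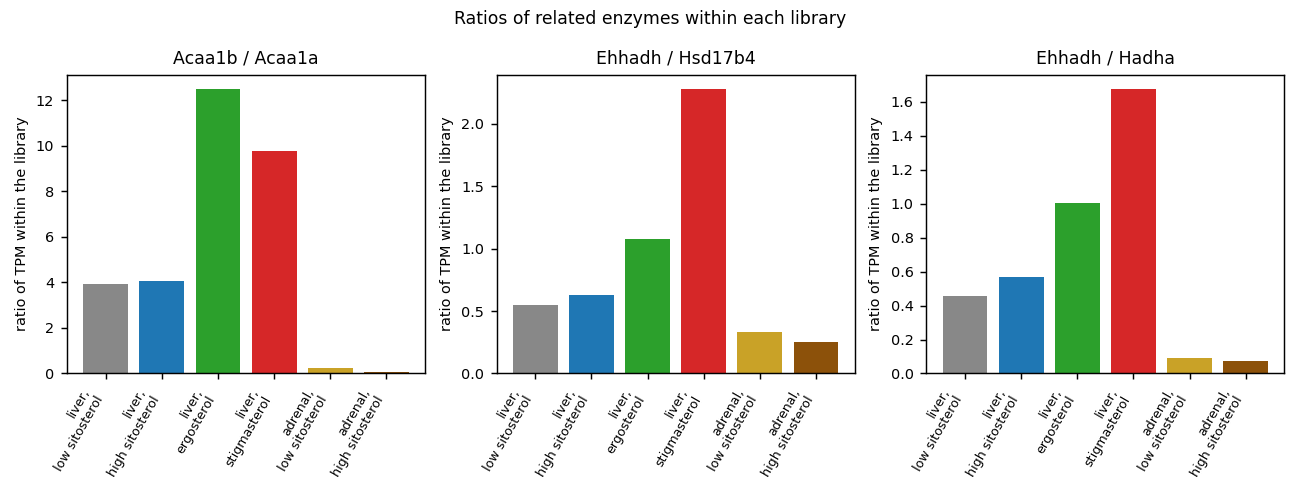
Ratio of the TPM of 2 enzymes within each of the 6 libraries, 1 bar per library from 0. Acaa1b over Acaa1a is highest in the ergosterol liver (12.5), Ehhadh over Hsd17b4 and over Hadha in the stigmasterol liver (2.28 and 1.68), and each is lower in the adrenals than in any liver.

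In the adrenal gland Acaa1b, Pdk4, Slc27a2 and Acsl1 were lower on high sitosterol, and the other 30 members lay within the size rule. Of 34 ratios 31 were below 0, beside 49.7% of all genes, the exceptions being Cpt1a (0.14), the ketone body dehydrogenase Bdh1 (0.27, from 110 and 155 counts) and Fabp1 (0.01, from 60 and 71 counts, and below 0 by TPM). By the size rule 1 of 18 mitochondrial members was lower (median -0.58), 1 of 12 peroxisomal (-0.54) and 2 of 4 activating or carrying genes (-0.59), and 0 were higher. Over all genes 3.82% were higher and 2.31% lower, with a median of 0.00. With a 1.5-fold rule 9 of 18 mitochondrial and 4 of 12 peroxisomal members were lower and 0 higher, beside 7.16% lower and 10.2% higher over all genes.

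Acaa1b fell from 29.9 to 8.37 TPM (3.53-fold lower by scaled CPM, log2 -1.82, -1.99 to -1.66), and Pdk4 from 188 to 77.8 scaled CPM (2.42-fold, -1.28, -1.33 to -1.22). Slc27a2 stood at 16.0 and 6.37 (-1.33, -1.53 to -1.13) and Acsl1 at 515 and 250 (-1.04, -1.08 to -1.01). Acaa1b and Pdk4, higher in 2 liver comparisons, were thus lower in this adrenal comparison, which involves another sterol contrast than those; with high sitosterol in liver they were at 0.01 and 0.26. Just within the size rule were the carnitine carrier Slc25a20 (-0.95), Ehhadh (-0.89, 52.7 and 28.3 scaled CPM) and Acadl (-0.79). Crat stood at 160 and 97.1, Abcd2 at 31.4 and 20.1 and Abcd3 at 136 and 92.1 scaled CPM. No scaling tried changed the 4 calls.

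Fat genes moved with the members. Of 14 white and brown fat markers 11 were lower and 0 higher (median -1.31), and their summed level went from 7649 to 3080 TPM, with none at 0 in either adrenal. Ucp1, the uncoupling protein that defines brown fat, stood at 315 and 66.9 TPM (log2 -2.20), Elovl3 was at -2.70, Cox7a1 at -1.82 and Cidea at -1.59. Cpt1b, the carnitine transferase of muscle and brown fat, was at -1.55, while Cpt1a was at 0.14. Adrenal cortex (10 genes, median 0.18) and chromaffin markers (8 genes, 0.47) had 0 past the size rule. Of the 9 macrophage markers analysed in adrenal 3 were higher and 1 lower (0.93). The mitochondrial content list had 0 of 16 past it and a median of -0.31. Whether fat around the gland or macrophages entered the members' values was not tested. Further mitochondrial and ketone body genes had 4 of 24 lower and 0 higher (-0.38), among them Acad11 and Acacb at -1.22 each, and further peroxisomal genes 1 of 32 lower and 0 higher (-0.20), Nudt7 at -1.09.

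**Figure D5:**
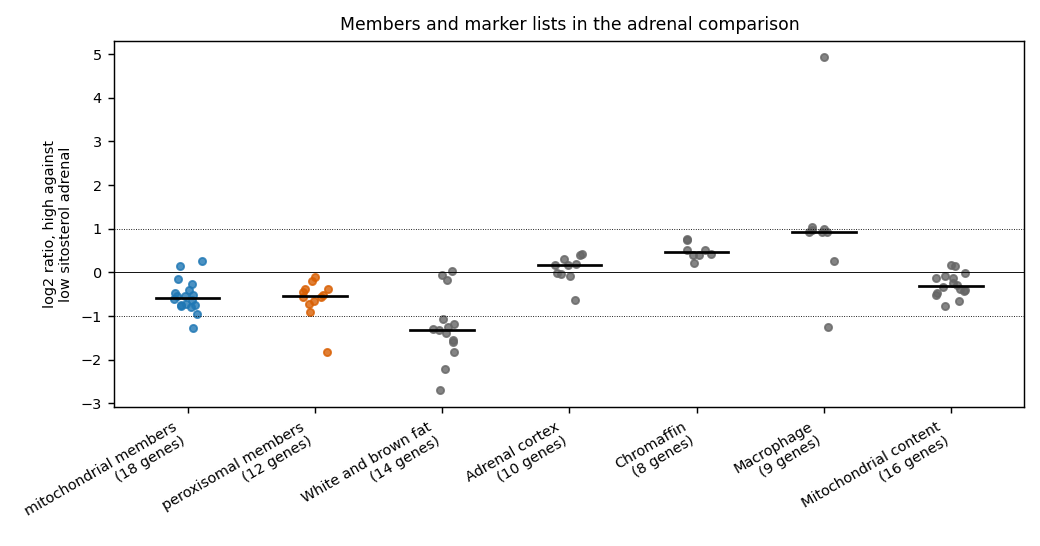
Log2 ratio of high to low sitosterol adrenal for the members of each organelle and for 5 marker lists, 1 point per gene, with a bar at the median and dotted lines at 2-fold. The fat markers are centred at -1.31, the members at -0.58 and -0.54, and the adrenal cortex, chromaffin and macrophage markers at 0.18, 0.47 and 0.93.

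Of the 34 members, 9 passed the size rule in at least 1 of the 4 comparisons with low sitosterol and 25 in none, beside 33.7% of the 12477 genes analysed in both tissues that passed in at least 1. The members' share was thus not above that of all genes. Those 9 were 1 of 18 mitochondrial members (Pdk4), 5 of 12 peroxisomal members (Ehhadh, Acaa1b, Abcd2, Crat and Abcd3) and 3 of the 4 that activate or carry fatty acids (Acsl1, Slc27a2 and Fabp1). The carnitine shuttle, the acyl-CoA dehydrogenases, the trifunctional protein and the electron carriers had no member among them, although Hadha (1.09) and Etfdh (1.33) passed for ergosterol against high sitosterol. Members whose 31-base words occur in other genes by over 30% are Acaa1b (50.1%), Etfb (49.9%), Scp2 (33.4%) and Acadvl (33.2%), and their values are less certain than those of Fabp1, Cpt2, Hsd17b4, Pex11a, Acadl, Acads and Acaa2, which share 0%.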

How the data were processed

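RNA was sequenced from 4 livers and 2 adrenal glands, 1 mouse each. Per the labels, RNA was extracted with RNeasy columns and libraries were made with a TruSeq RNA kit, which keeps no strand. Estimated counts and TPM values, each by gene symbol, are the authors' deposited values for these libraries. Per the submitters' processing notes the tools were Trimmomatic 0.33, HISAT2 2.0.5 and kallisto 0.43.1 on the build mm10, and their roles and the annotation are not given in the sources used here. Of the estimated counts deposited, 39.1% to 49.3% per library were not whole, and they were rounded. A row that names no gene, at 0 counts, was left out, and 0 columns of values were unmatched. Mmut was matched as Mut through RefSeq synonyms.

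TMM factors were computed within each tissue with edgeR 4.0.16 (R 4.3.3). Genes at 1 CPM in at least 1 library were kept. Ratios used a prior count of 0.5 and conditional binomial 95% intervals (scipy 1.17.1), which cover counting error only and not differences between animals. PCR copies of a molecule are counted as separate reads, which these intervals do not allow for. A count of 0 allows up to 0.0593 to 0.0722 CPM, taking 3 counts as the limit. With 1 library per group no test was run. The interval step was tested on simulated counts with counting error only, which checks the calculation and not its fit to these libraries. Values in each library are given for members past the size rule and for the 3 highest members of each organelle. Of the other lists up to 4 genes per list with the largest ratios at 10 CPM are named, and Ppara, Ppargc1a and Ucp1. A few of the named genes are left out here. Members and lists were chosen with earlier results of these data known. Alternatives for the comparisons with low sitosterol were total counts, DESeq2 1.42.0 size factors, log2(TPM + 0.1) and log2(TPM + 1), other count minimums, a 1.5-fold rule and Crat and Eci2 counted as mitochondrial. Words of 31 bases were compared over GENCODE M21 transcripts.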

Additional observations from a re-analysis of the deposited data

How the results depend on the processing

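The main limits are 1 mouse per group, 1 shared low sitosterol liver, and the scaling of the stigmasterol library. Of the alternatives to the counts and medians of the 2 organelles, 183 values kept to the reported one and 45 moved. Of 76 alternative medians 9 had the other sign, 6 with stigmasterol against low sitosterol, 2 with stigmasterol against high sitosterol (peroxisomal, 0.43 and 0.60) and 1 with ergosterol against stigmasterol (mitochondrial, -0.028). DESeq2 size factors, no low-count filter and a 10 CPM filter moved none of those with low sitosterol. Among the comparisons with low sitosterol, the mitochondrial and peroxisomal medians with stigmasterol went from below to above 0 with total counts and on both TPM scales, without having been called.

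With total counts the mitochondrial median was -0.13 with high sitosterol and 0.56 with stigmasterol, and with stigmasterol 3 mitochondrial and 5 peroxisomal members were higher and 0 peroxisomal lower. On the log2(TPM + 0.1) scale the mitochondrial medians in the high sitosterol, ergosterol and stigmasterol livers were -0.014, 0.74 and 0.75. Higher were 5 mitochondrial and 7 peroxisomal members with ergosterol and 5 and 5 with stigmasterol, with 0 peroxisomal lower. On the log2(TPM + 1) scale the medians were -0.014, 0.73 and 0.74, and 5 and 7 members were higher with ergosterol, 4 and 5 with stigmasterol (0 peroxisomal lower) and 0 peroxisomal with high sitosterol, beside 5.07%, 30.8% and 4.19% of all genes higher. These scales also moved the median of all genes, to 0.94 with stigmasterol on the first.

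In the direct comparisons, alternatives chosen after seeing the data gave 3 mitochondrial members higher for stigmasterol against high sitosterol with total counts (median 0.63) and 5 on the log2(TPM + 0.1) scale (0.76), beside 29.0% and 32.7% of all genes. For ergosterol against stigmasterol, 1 mitochondrial member was lower and 0 peroxisomal higher under both, with medians of 0.00033 and 0.29 with total counts and -0.028 and 0.38 by TPM.

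With a 1.5-fold rule, 1 mitochondrial and 2 peroxisomal members were lower with high sitosterol in liver (9.19% of all genes), and 4 and 8 were higher with ergosterol (14.0%). With stigmasterol 2 and 5 were higher (29.9%) and 3 and 5 lower (17.0%), and in adrenal 9 and 4 were lower (7.16%). Counting Crat and Eci2 as mitochondrial gave 2 mitochondrial members higher with ergosterol. Over all genes with stigmasterol, 2895 higher and 1044 lower became 5283 and 401 with total counts and 6223 and 311 on the log2(TPM + 0.1) scale. No paired analysis was possible because each group has 1 library. Depth limits the scarce members, Pdk4 and Abcd2 in liver (107 and 257 counts with low sitosterol) and Fabp1 and Bdh1 in adrenal (60 and 110).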
